A study of Rattus norvegicus with 3 samples.

Results

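Collagen genes were examined in the motor cortex of 3 male Sprague-Dawley rats. The members are all table rows whose gene symbol has the form of Col, a type number, the letter a and a chain number, in any case. This rule found 44 of 30957 genes, which carry 43 distinct symbols because Col23a1 has 2 gene IDs. The animals, numbered 32, 39 and 68, received no treatment and form 1 group called normal, at a time given as 8 weeks without saying what it counts from. Each gave 1 mRNA library, so an animal, its dissection and its library cannot be told apart. Values are FPKM, fragments scaled to gene length and library depth, and are given as mean ± SD over the 3 animals unless single animals are named.

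Collagens are secreted or membrane-bound proteins in which 3 chains wind into a triple helix. Some types are built from copies of 1 chain and others from different chains, each from its own gene. Fibrillar collagens form the cross-banded fibrils of connective tissue, type IV collagen forms the network of basement membranes, and other classes coat fibrils, link cells to matrix or span the cell membrane. In the brain, fibrillar collagen lies mainly in the meninges and around larger vessels and type IV collagen in the basement membrane of vessels and of the brain surface, while several transmembrane and fibril-associated collagens are made by neurons.

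The depth, inferred from the steps between values of short genes, was between 15460924 and 17665103 fragments per library, so that 1 FPKM stood for 15.5 to 17.7 fragments per kilobase of gene. Cortical identity was present in all libraries, with the 10 cortical projection neuron markers summing to 775, 815 and 766 FPKM in animals 32, 39 and 68. Animal 68 stood apart: 11 choroid plexus markers summed to 11.8, 643 and 7684 FPKM, 8 striatal neuron markers to 126, 99.3 and 238 and 8 oligodendrocyte markers to 3365, 5200 and 9095. In bulk tissue, fewer cells of a type and less RNA per cell cannot be told apart. A value of 0 in the tables cannot be read as absence, because housekeeping genes such as Hprt1, Rpl8 and Rps6 stood at 0 in every library too.

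Across the family, 41 of 44 members were above 0 in every animal and 3 were listed at 0 in every animal. The latter were Col1a2, the partner chain of Col1a1 in type I collagen, Col15a1, a basement membrane proteoglycan collagen, and the Col23a1 gene ID ENSRNOG00000046785. In all 3 animals, 23 members reached 1 FPKM or more (52.3%, against 40.7% of all genes), and the median of the members' mean levels was 3.10 FPKM (0.276 FPKM over all genes). The figures over all genes include the 12028 of 30957 listed at 0 in every animal, so nothing is read from them about the family. Together the members summed to 204, 231 and 291 FPKM in animals 32, 39 and 68, or 0.0516 ± 0.0108% of all FPKM. The 8 members with the highest means held 63.4 ± 0.951% of this sum.

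Which members stood above or below 1 FPKM beyond the spread between animals was tested with limma across all 18929 genes above 0 in some library. Of the 41 members tested, 22 were called above 1 FPKM (53.7%, against 64.4% of all genes tested) and 11 below (26.8%, against 23.2%), at a Benjamini-Hochberg adjusted p under 0.05. Neither call was made for 8 members, which were Col12a1, Col4a4, Col7a1, Col6a3, Col4a6, Col14a1, Col8a1 and Col8a2. The members' shares lay below and slightly above those of all genes, and nothing is read from them about the family. These p-values concern the spread between these 3 animals only. The call for the transmembrane collagen Col13a1 (log2 difference from 1 FPKM 1.29, SE 0.44, adjusted p = 0.042, limma) was lost without animal 32 (adjusted p = 0.0891) and without animal 39 (adjusted p = 0.0948).

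**Figure D1:**
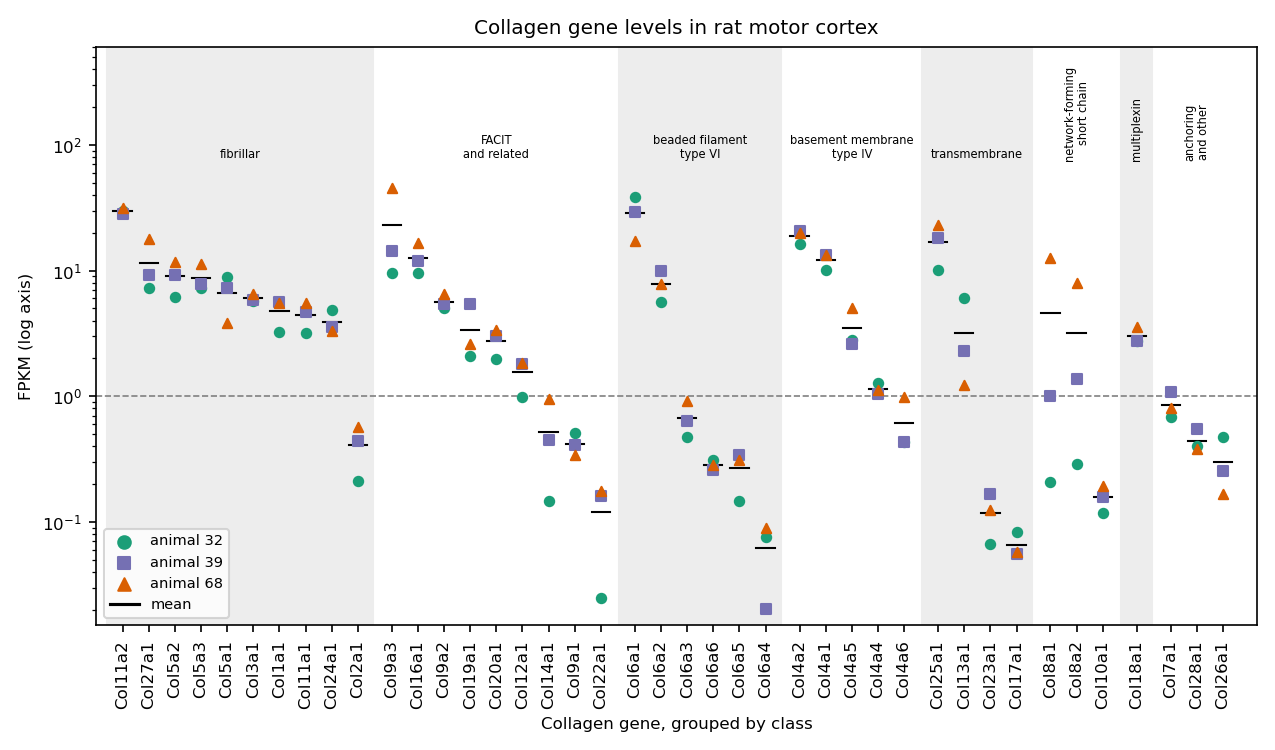
FPKM of the 41 collagen genes above 0, on a log axis, by class and by mean within a class; symbols are the 3 animals, short bars the means and the dashed line 1 FPKM. Col11a2 and Col6a1 head the family at means of 29.9 and 28.4 FPKM, and Col8a1 and Col8a2 spread most widely between animals.

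The order of levels was not sharp. Among the 26 members with a mean of 1 FPKM or more, the ranges of the animals overlapped for 24 of 25 neighbours in the order, and only Col20a1 lay wholly above its next neighbour, Col12a1. The median SD of these members between animals was 0.42 on the log2 scale, against 0.20 over the 13378 genes whose mean reached 1 FPKM. The sets were not matched for level, on which this SD can depend, so nothing is read from it about the family. The tightest member was Col11a2 (SD 0.08) and the widest Col8a1 (SD 2.73).

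Fibrillar collagens formed the largest class, with a summed level of 76.7, 81.6 and 97.4 FPKM in animals 32, 39 and 68, or 35.5 ± 2.08% of all collagen FPKM. Of its 11 genes, 9 had a mean of at least 1 FPKM. The highest was Col11a2, a type XI chain best known from cartilage fibrils and the inner ear, with 30.0, 28.1 and 31.5 FPKM in the 3 animals (chromosome 20, 3830164 to 3859018, Rnor_6.0). Its values stayed within 1.12-fold of each other, and no other locus in the tables overlapped it. Its nearest neighbour on the same strand, Rxrb, lay 1023 bases away at 8.63, 8.94 and 7.65 FPKM. Col11a1, the partner chain, measured 3.17, 4.65 and 5.56 FPKM, below Col11a2 in every animal.

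Other fibrillar chains lay lower. Col27a1, a fibrillar collagen of cartilage, measured 7.31, 9.20 and 17.8 FPKM, with animal 68 well above the others. The type V chains, which help to start and size fibrils, were close in mean level: Col5a2 had 9.02 ± 2.81 FPKM, Col5a3 8.76 ± 2.17 and Col5a1 6.63 ± 2.57. Their order differed between animals, since Col5a1 was the highest of them in animal 32 (8.86 FPKM) and the lowest in animal 68 (3.81 FPKM). Col3a1, the type III chain found with type I in vessel walls and a ligand of the adhesion receptor Adgrg1, measured 5.69, 5.84 and 6.499 FPKM. Col1a1, the major chain of type I collagen, measured 3.27, 5.62 and 5.48 FPKM. Since Col1a2 was listed at 0, no ratio of the type I chains could be formed. Col24a1, a fibrillar collagen described in bone and brain, had 4.82, 3.54 and 3.28 FPKM. The cartilage chain Col2a1 stayed under 1 FPKM in all animals (0.213, 0.442 and 0.574).

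**Figure D2:**
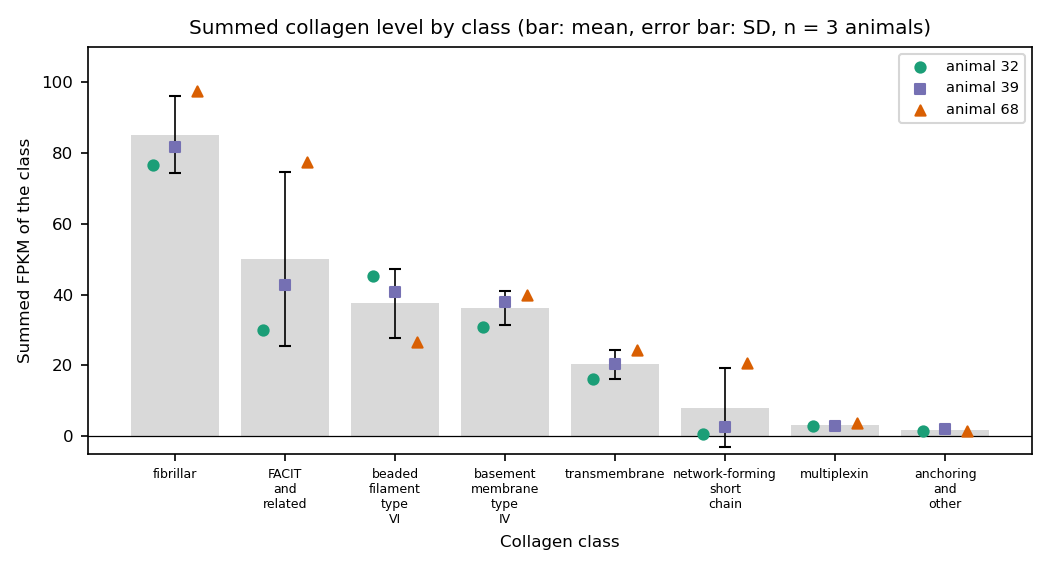
Summed FPKM of each collagen class, with bars for the mean, error bars for the SD over 3 animals and symbols for single animals. Fibrillar genes sum to between 76.7 and 97.4 FPKM, and every class is highest in animal 68 except type VI and the anchoring and other genes, which are lowest there.

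Type IV collagen, the main scaffold of the basement membrane around brain vessels, held 15.1 ± 1.36% of collagen FPKM. Col4a2 measured 16.2, 20.6 and 19.7 FPKM and Col4a1 10.1, 13.3 and 13.2 FPKM in animals 32, 39 and 68. Both were lowest in animal 32, and the ratio of Col4a1 to Col4a2 hardly moved, with log2 values of -0.67, -0.63 and -0.58. Endothelial markers summed to 146, 133 and 123 FPKM and mural cell markers of vessels to 131, 170 and 135. The endothelial sum was highest in animal 32. The mural sum was highest in animal 39 and nearly equal in animals 32 and 68. Col4a1 and Col4a2 were instead close in animals 39 and 68. Of the 12 mural markers, 3 were highest in animal 68 and the others in animal 39. The part of either cell type in these values was not tested.

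The restricted type IV chains, known from kidney and inner ear basement membranes, were lower. Col4a5 measured 2.81, 2.61 and 5.03 FPKM, highest in animal 68. Col4a6, also on the X chromosome, measured 0.430, 0.434 and 0.979 FPKM and was lower than Col4a5 in every animal. Col4a4 stood at 1.14 ± 0.113 FPKM, not distinguishable from 1 FPKM (adjusted p = 0.445, limma). No row carried the symbol Col4a3.

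The type IV genes lie in head-to-head pairs, read away from each other from neighbouring start sites. In the RefSeq promoter table (rat build GRCr8) the start sites of Col4a1 and Col4a2 were 76 bases apart on chromosome 16, those of Col4a3 and Col4a4 412 bases apart on chromosome 9 and those of Col4a5 and Col4a6 1414 bases apart on the X chromosome. The loci in the deposited tables, on Rnor_6.0, instead left 83600 bases between Col4a2 (chromosome 16, 83387364 to 83438561, minus strand) and Col4a1 (83522162 to 83632153, plus strand), with no other gene between them. The 76 bases shared by the pair are shown because these chains kept the tightest ratio of the 12 computed. They lie at chr16:84885521-84885596 in GRCr8 and are given on the plus strand, 5′ to 3′, with capitals for GC boxes (GGGCGG on either strand).
Col4a1 and Col4a2: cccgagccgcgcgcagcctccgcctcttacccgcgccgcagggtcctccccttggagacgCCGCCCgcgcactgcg
This stretch had a GC content of 78.9% and 1 GC box, with no CCAAT or TATAAA on either strand. The 250 bases before the start site of each gene, which reach beyond this stretch, did hold CCAAT for both Col4a1 and Col4a2.

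Type VI collagen, which forms beaded microfibrils that tie cells to the surrounding matrix, was dominated by Col6a1 (chromosome 20, 12658065 to 12675561). Its levels were 38.7, 29.4 and 17.1 FPKM in animals 32, 39 and 68, so that animal 68 was lowest. Col6a2, which lies 97865 bases away with 1 gene between them, measured 5.66, 9.96 and 7.77 FPKM and did not share that order. Col6a3, the large chain that completes the type VI trimer, measured 0.476, 0.630 and 0.915 FPKM. The alternative chains Col6a4, Col6a5 and Col6a6 had means between 0.062 and 0.284 FPKM, all called below 1 FPKM. The class held 22.3, 17.6 and 9.08% of collagen FPKM in the 3 animals.

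Fibril-associated collagens (FACITs and related types), which decorate fibrils instead of forming them, held 14.7, 18.6 and 26.6% of collagen FPKM. Col9a3, a chain of the cartilage collagen type IX, was the highest of them with 9.57, 14.3 and 45.2 FPKM, and animal 68 lay 4.73-fold above animal 32. The other type IX chains did not share its size: Col9a2 measured 5.05, 5.43 and 6.52 FPKM and Col9a1 0.508, 0.408 and 0.342 FPKM. Col16a1, which associates with fibrils and cell-bound matrix, measured 9.62, 11.8 and 16.5 FPKM. Col19a1, a minor collagen made by neurons, was highest in animal 39, with 2.10, 5.46 and 2.61 FPKM. Col20a1 had 2.77 ± 0.715 FPKM and Col12a1, a collagen of dense connective tissue, 1.55 ± 0.489. Col14a1 (0.516 ± 0.410) and Col22a1 (0.120 ± 0.0828) were low.

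Of the transmembrane collagens, Col25a1 and Col13a1 were detected above 1 FPKM. Col25a1, a neuronal membrane collagen whose shed part binds amyloid plaques, measured 10.02, 17.99 and 22.96 FPKM (chromosome 2, 235596123 to 235715057) and was lowest in animal 32. Pan-neuronal markers had another order, summing to 4680, 4168 and 3442 FPKM. Col13a1, a collagen of the neuromuscular junction and other adhesion sites, went the opposite way to Col25a1, with 6.004, 2.30 and 1.23 FPKM. The detected Col23a1 gene ID (0.119 ± 0.0499) and Col17a1 (0.0654 ± 0.0151), a hemidesmosome protein of skin, were both called below 1 FPKM.

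Remaining classes were small. Col18a1, the basement membrane collagen from which endostatin is cut, stood at 2.73, 2.76 and 3.58 FPKM. The short network-forming chains Col8a1 and Col8a2 of type VIII collagen, known from the cornea and vessel walls, ranged from under 0.3 FPKM in animal 32 to 12.7 and 7.91 FPKM in animal 68, so that their means of 4.63 ± 6.99 and 3.19 ± 4.12 FPKM rest on 1 animal. The network-forming class, which also holds the cartilage chain Col10a1, held 2.84 ± 3.74% of collagen FPKM and 0.699% without animal 68. Col10a1 (0.157 ± 0.0379 FPKM) lies wholly inside Nt5dc1 on the opposite strand, and without strand information fragments of this pair cannot be told apart. Col7a1, the anchoring fibril collagen of skin, measured 0.856 ± 0.209 FPKM, and Col28a1 0.444 ± 0.0901. Col26a1 measured 0.477, 0.255 and 0.168 FPKM.

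How collagen chains compare in level was followed through 18 pairs, most of them chains of the same type and the others chains of related or contrasting types, as log2 ratios of FPKM + 0.1 within each animal. A ratio could be computed for 12 pairs; in 4 a gene was listed at 0, and in 2 no row carried the symbol Col4a3. The sign was the same in all 3 animals for 9 of the 12. Errors in gene models or mapping would enter such a ratio alike in every animal. No test was made of these ratios.

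Chains that assemble together often differed in level. Col11a2 exceeded Col11a1 6.73-fold, with a log2 ratio of Col11a1 to Col11a2 of -2.75 ± 0.39. Col6a1 exceeded Col6a2 3.51-fold, and the log2 ratio varied between animals, at 2.75, 1.55 and 1.13. Col6a3 stood 35.9-fold under Col6a1 (log2 ratio -5.16 ± 1.01). In type IX, Col9a3 exceeded Col9a2 3.22-fold with log2 ratios of 0.91, 1.38 and 2.78, while Col9a1 lay 11.1-fold under Col9a2. Col4a5 exceeded Col4a6 5.09-fold with a narrow spread (2.35 ± 0.10), and Col4a2 exceeded Col4a1 1.54-fold with the narrowest (SD 0.05). In both of these type IV pairs the deposited loci set the start sites much farther apart than GRCr8 does. The part of the gene models in these ratios was not tested. The pairs with no common sign were Col5a1 over Col5a2 (0.53, -0.35 and -1.59), Col5a3 over Col5a1 (-0.29, 0.11 and 1.54) and Col8a1 over Col8a2 (-0.33, -0.42 and 0.68). In these pairs the mean ratio was smaller than its SD. The broadly expressed Col4a1 exceeded the restricted Col4a5 3.56-fold, and Col25a1 exceeded the other transmembrane chain Col23a1 by 6.23 ± 0.40 on the log2 scale, a value that was 3.94 with a pseudocount of 1 and 7.05 with 0.01.

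**Figure D3:**
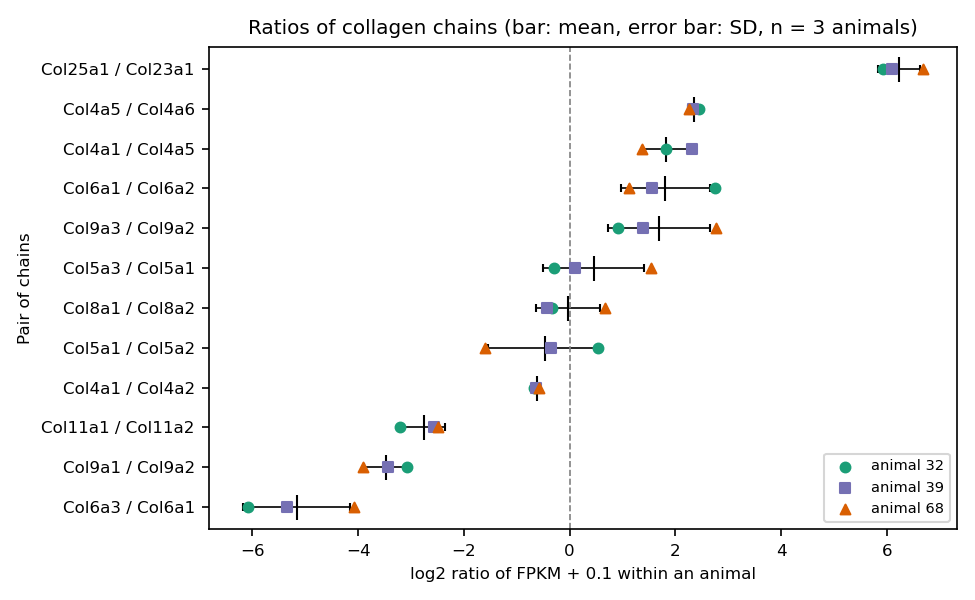
log2 ratio of FPKM + 0.1 for 12 pairs of collagen chains; symbols are the 3 animals, with the mean and its SD, and the dashed line marks equal levels. Col4a1 over Col4a2 and Col4a5 over Col4a6 are the tightest, while Col5a1, Col5a3, Col6a1 and Col9a3 ratios spread most with animal 68 at one end.

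The members were then compared between animals. With 1 library per animal there is no replicate check, so a difference of more than 2-fold on the log2(FPKM + 0.1) scale is used as a description, among the 26 members with a mean of at least 1 FPKM. In all comparisons between animals, shares and medians given for all genes are over the 13378 genes with such a mean. Between animals 32 and 39, 3 members were more than 2-fold higher in animal 39 (Col8a1, Col8a2 and Col19a1; 2.59% of all genes) and Col13a1 was lower (0.553% of all genes). Between animals 39 and 68, 3 were higher in animal 68 (Col8a1, Col8a2 and Col9a3; 4.18% of all genes) and Col19a1 was lower (1.97%). Between animals 32 and 68, 5 were higher in animal 68 (Col8a1, Col8a2, Col9a3, Col27a1 and Col25a1; 9.77% of all genes) and 3 were lower (Col13a1, Col5a1 and Col6a1; 3.05%). These comparisons share animals and are not independent of each other.

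Over all 26 members, large differences included, values leaned towards animal 68. Its value was the highest of the 3 for 16 of 26 members, against 46.7% of all genes, and the median difference between animals 68 and 32 was 0.54 on the log2 scale for the members against 0.07 for all genes. Of the 26 members, 21 were higher in animal 68 than in animal 32 (80.8%, against 57.1% of all genes), and Col13a1, Col5a1, Col6a1, Col24a1 and Col4a4 were lower. With libraries scaled by the median of ratios, 20 were higher and Col11a2 changed its sign. Col11a2 and Col3a1 were among the steadiest, at 1.05-fold and 1.14-fold of animal 32.

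**Figure D4:**
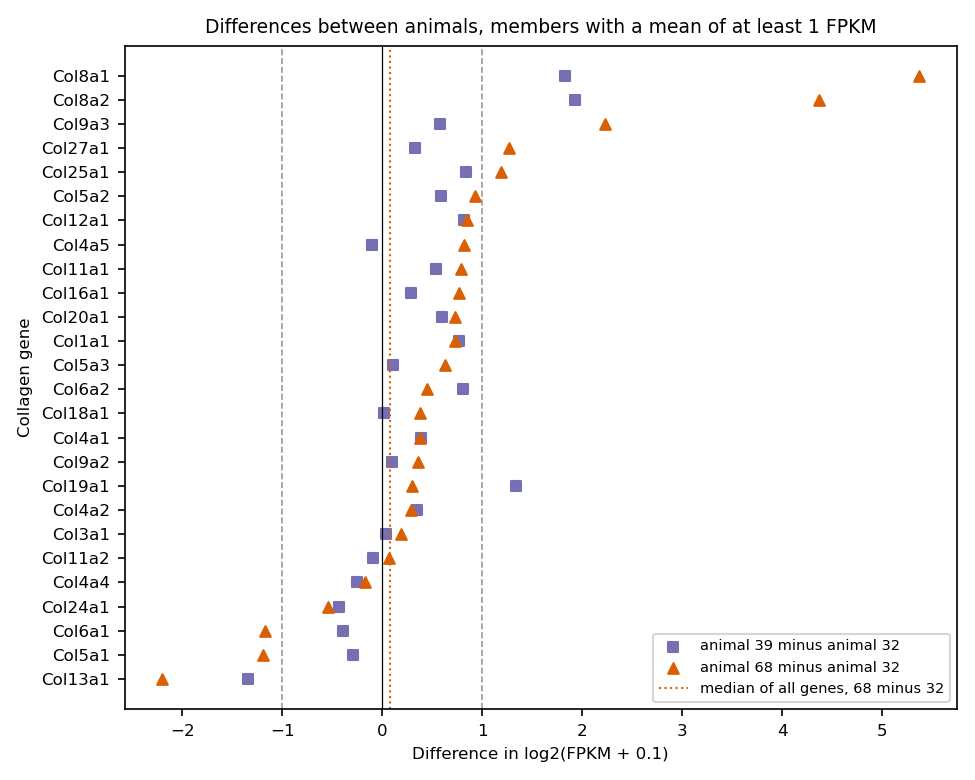
Difference in log2(FPKM + 0.1) from animal 32 for the 26 members with a mean of at least 1 FPKM, for animal 39 (squares) and animal 68 (triangles); dashed lines mark 2-fold and the dotted line the median of all genes for animal 68. Col8a1 and Col8a2 lie farthest to the right and Col13a1 farthest to the left in animal 68.

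The widest differences were those of the type VIII chains. Col8a1 measured 0.209, 1 and 12.7 FPKM and Col8a2 0.288, 1.37 and 7.91 FPKM in animals 32, 39 and 68, so animal 68 was 60.7-fold and 27.5-fold above animal 32. In animal 32 these values stand for only 3.46 and 4.77 fragments per kilobase, so the folds are imprecise. Both chains and Col9a3 were lowest in animal 32 and highest in animal 68, as were 14 of the 26 members in all (32.9% of all genes). The choroid plexus sum had the same order, and all 11 of these markers found were above 0 and more than 2-fold higher in animal 68 than in animal 32 (Ttr 8.36, 615 and 7264 FPKM; Mfrp 0.0674, 4.31 and 67.1). The 6 ependymal markers found summed to 24.4, 34.9 and 70.9 FPKM. The 12 meningeal and perivascular fibroblast markers, of which Ogn was listed at 0, summed to 50.9, 65.3 and 131 FPKM, with Igf2 at 11.3, 17.1 and 65.2 and Dcn at 10.3, 9.31 and 17.1. Only 5 of these 12 were highest in animal 68, and others were lowest there, such as Aldh1a2 at 4.50, 5.73 and 1.73 and Ranbp3l at 5.76, 5.98 and 3.57, both named after their values were seen. Sums over astrocyte (991, 1085 and 1929 FPKM), oligodendrocyte precursor (99.2, 150 and 234) and microglial markers (70.4, 96.2 and 139) were also highest in animal 68. The part of any of these cell types in the collagen values was not tested. Without animal 68, Col8a1 and Col8a2 were still 4.78-fold and 4.76-fold higher in animal 39 than in animal 32.

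**Figure D5:**
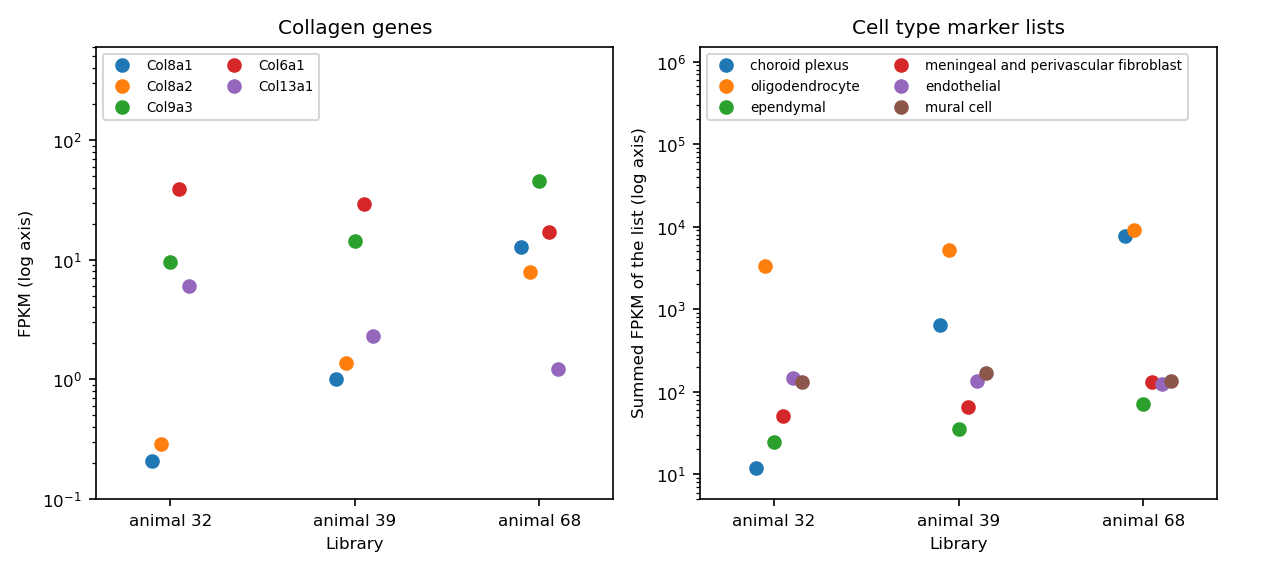
Left, FPKM of 5 collagen genes in each library on a log axis; right, summed FPKM of 6 marker lists on a log axis; points of a library are set side by side for legibility. Col8a1, Col8a2, Col9a3 and the choroid plexus sum are highest in animal 68, where Col6a1 and Col13a1 are lowest, and the endothelial and mural sums stay between 123 and 170 FPKM.

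Upstream sequences are shown for the pair of chains that differed most, Col8a1 and Col8a2, and for Col13a1, which differed most in the other direction. Each is the stretch of 250 bases before the start site in the RefSeq promoter table (GRCr8), 5′ to 3′ on the gene's own strand, with motifs in capitals. The motif of the GC box was GGGCGG. That of the CCAAT box is its name. For the TATA box it was TATAAA. Both strands were searched, and overlapping copies were counted. Col8a1 lies at chr11:56246532-56246781 (plus strand), Col8a2 at chr5:143870519-143870768 (plus strand) and Col13a1 at chr20:30466801-30467050 (minus strand).
Col8a1: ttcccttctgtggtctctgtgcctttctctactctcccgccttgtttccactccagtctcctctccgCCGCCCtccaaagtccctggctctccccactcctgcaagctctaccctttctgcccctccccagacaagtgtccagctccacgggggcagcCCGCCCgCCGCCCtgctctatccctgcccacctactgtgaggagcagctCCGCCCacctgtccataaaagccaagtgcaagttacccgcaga
Col8a2: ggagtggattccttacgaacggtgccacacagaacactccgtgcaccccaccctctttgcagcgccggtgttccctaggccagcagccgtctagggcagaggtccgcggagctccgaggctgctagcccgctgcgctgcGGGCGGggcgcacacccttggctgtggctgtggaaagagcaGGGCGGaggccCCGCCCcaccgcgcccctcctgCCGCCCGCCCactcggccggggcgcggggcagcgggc
Col13a1: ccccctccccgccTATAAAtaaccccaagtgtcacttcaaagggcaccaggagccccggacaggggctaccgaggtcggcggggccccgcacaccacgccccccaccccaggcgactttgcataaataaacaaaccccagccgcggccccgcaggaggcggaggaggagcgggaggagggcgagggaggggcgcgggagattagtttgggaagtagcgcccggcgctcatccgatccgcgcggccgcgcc
The Col8a1 stretch held 4 GC boxes and the Col8a2 stretch 5, with no CCAAT or TATAAA in either. The Col13a1 stretch held 1 TATAAA, near the end farthest from its start site, and no GC or CCAAT box. A promoter was matched for 34 of the 43 symbols. A GC box was present in 18 of them (52.9%, against 30.5% of all 33469 promoter stretches of the same length), a CCAAT box in 11 (32.4%, against 34.0%) and a TATA box in 4 (11.8%, against 12.9%). The median GC content was 58.6% for the members and 51.2% over all promoters. A match describes the letters only, whatever their distance from the start site.

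The enzymes and chaperones that make collagen were followed as a list. Of its 20 genes for modification and folding, 16 were called above 1 FPKM (64.4% of all genes tested) and 0 below (23.2% of all genes tested), with a median of mean levels of 6.85 FPKM. Ppib, a prolyl isomerase of the endoplasmic reticulum, had 75.3 ± 13.7 FPKM. P4hb, the shared subunit of prolyl 4-hydroxylase that also acts as a general disulfide isomerase, had 49.3 ± 12.2, P3h3, a prolyl 3-hydroxylase family member, 29.4 ± 3.07 and Mia3, which helps to export bulky procollagen, 26.1 ± 2.75. Serpinh1, the collagen-specific chaperone Hsp47, measured 13.9, 21.0 and 35.3 FPKM in animals 32, 39 and 68 and was lowest in animal 32, as was the summed collagen level. The lysyl hydroxylase Plod1 had the same order, at 7.05, 9.89 and 15.6 FPKM.

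Of 15 genes for processing and cross-linking, 6 were called above 1 FPKM (64.4% of all genes tested) and 3 below (23.2%). Sparc, a matrix protein that binds collagen, was far the highest at 127, 163 and 279 FPKM, followed by the C-propeptide protease Bmp1 at 15.1, 13.7 and 14.5. The N-propeptide protease Adamts3 had 6.30 ± 2.04 FPKM and Pxdn, which cross-links type IV collagen, 4.36 ± 1.43. Lox, the founding lysyl oxidase, was at 0.640 ± 0.266.

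Among 11 collagen receptors, 5 were called above 1 FPKM (64.4% of all genes tested) and 4 below (23.2%). Ddr1, a receptor tyrosine kinase for collagen, measured 16.0, 24.7 and 38.9 FPKM, the integrin subunit Itgb1 18.9, 23.4 and 35.8, and the adhesion receptor Adgrg1 14.98, 19.3 and 32.0. All were highest in animal 68. The collagen-binding integrin subunit Itga1 was lower, at 0.449, 1.18 and 1.79 FPKM, and Mrc2, which takes up collagen fragments, had 3.00 ± 1.06.

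Of 7 genes for collagen breakdown, 2 were called above 1 FPKM (64.4% of all genes tested) and 2 below (23.2%). The membrane protease Mmp14 measured 2.70, 5.02 and 19.3 FPKM and Mmp2, the protease that it activates, 1.12, 2.65 and 13.7, so both were highest in animal 68. Mmp9, a gelatinase, at 1.97, 0.782 and 0.495 FPKM, and Fap, a fibroblast surface protease, at 1.16, 0.829 and 0.605, were lowest there. Ctsk, a lysosomal collagenase, stayed level at 8.15, 8.31 and 6.44 FPKM. Of the 11 other basement membrane genes found (12 listed), 8 were called above 1 FPKM (64.4% of all genes tested) and 1 below (23.2%). The proteoglycan Agrn was highest (28.1 ± 6.03 FPKM), and the laminin chains Lamb2 (11.9 ± 4.82) and Lamc1 (9.97 ± 0.566) were close to Col4a1 (12.2 ± 1.80) in level.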

How the data were processed

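Per the labels' protocols, RNA was checked for integrity, purified and made into 1 mRNA library per animal. The authors deposited 1 FPKM value per gene and library. Per the submitters' processing notes, the tools were HISAT2 2.0.4 and StringTie 1.3.0 and the build Rnor_6.0; the notes do not say what each did. Annotation release and strandedness: not given in the sources used here. Depth was inferred where values of loci up to 400 bases fell within 0.02 fragments of a whole number (85.6, 86.6 and 88.4% of them), and limits counting error only. No value above 0 was shared by 2 libraries.

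Values were analysed as log2(FPKM + 0.1), which understates folds of low genes. limma 3.58.1 (R 4.3.3) tested each gene above 0 in some library against 1 FPKM (moderated one-sample test, prior trend on the mean, Benjamini-Hochberg adjustment over 18929 genes, threshold 0.05). It was also run on simulated levels, whose spread was set in advance and drawn independently for each gene. That run does not cover the spread of these data or shifts shared by many genes in 1 animal. Python 3.11.15 with pandas 2.3.3 and numpy 2.4.6 did the rest. All members may be named; of each other list, up to 4 genes with the highest means (2 for markers) and those whose role is explained. Members, lists and pairs were chosen with earlier results of these data known.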

Additional observations from a re-analysis of the deposited data

How the results depend on the processing

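The count of members called above 1 FPKM lay between 21 and 23 and that below between 8 and 13 over all alternatives of pseudocount, filter, scaling, limma prior and left-out animal. Without each animal in turn, the summed collagen level lay between 217 and 261 FPKM and the number of chain ratios with a common sign between 9 and 11. With a filter at a mean of 5 FPKM in place of 1 FPKM, the members differing more than 2-fold numbered 0 between animals 32 and 39 (4 as reported), 1 between 39 and 68 (4) and 5 between 32 and 68 (8), and with a filter at 0.1 FPKM the last count was 13; a stricter filter leaves fewer genes to count. Without animal 32, Col8a2 (adjusted p = 0.0295) and Col12a1 (0.0299) were called above 1 FPKM in limma, and without animal 68, Col4a6 (0.0205) and Col14a1 (0.0138) below. The call for Col13a1 was also lost with a pseudocount of 1 (0.0617), without a filter (0.115) and without a trend (0.0674). Calls below 1 FPKM for Col28a1 and Col2a1 were lost without animal 32, without animal 39 or without a filter, and that for Col9a1 without animal 39. A pseudocount of 1 moved the log2 ratio of Col6a3 over Col6a1 to -4.07, of Col9a1 over Col9a2 to -2.23 and of Col4a5 over Col4a6 to 1.45. No paired analysis was possible because all animals belong to 1 group. Depth limits the low members: Col6a4 rested on 0.316 to 1.58 fragments per kilobase.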

Other observations

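Rows outside the symbol rule also describe collagens. A row called LOC100911572 and described as similar to the alpha-3 chain of type IV collagen (gene ID ENSRNOG00000015365, chromosome 9, 88357556 to 88485830, next to Col4a4) measured 0.643, 1.26 and 0.976 FPKM in animals 32, 39 and 68, and a second row of that name was listed at 0 in every library. LOC100909752, described as similar to the alpha-1 chain of type XV, measured 0.0465, 0.0623 and 0.0218 FPKM, while Col15a1 itself was listed at 0. Adipoq, the fat cell hormone with a collagen-like stalk, was listed at 0 in animal 32 and measured 0.0385 and 2.14 FPKM in animals 39 and 68. Colq, the collagen tail that anchors acetylcholinesterase, had 0.221, 0.520 and 0.538 FPKM, and Cthrc1, a secreted protein with a short collagen repeat, 0.447, 0.798 and 0.326.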
